A study of Rattus norvegicus with 8 samples.

Results

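The integrated stress response and the brakes on mTOR complex 1 were followed in rat PC12 cells through 10 of the 13810 genes measured: Atf4, Atf3, Ddit3, Trib3, Chac1, Asns, Psat1, Ppp1r15a, Ddit4 and Sesn2. Every probe set annotated with one of these symbols was taken, which gave 13 of the 31142 probe sets on the pair of chips, 11 of them on chip A for 9 of the genes and 2 on chip B for Sesn2. PC12 cells come from a rat pheochromocytoma, a tumour of the catecholamine-making cells of the adrenal medulla. Total RNA of cells given forskolin, a plant compound that activates adenylyl cyclase and so raises cyclic AMP, was compared with RNA of cells without forskolin, on 2 arrays per group and chip (8 arrays in all). The sources used here state no dose, exposure time or control agent. Nothing in the labels says that replicates are separate cultures, so p-values measure only the spread between these arrays, which may be technical.

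The integrated stress response starts when kinases that sense amino acid shortage, misfolded protein in the endoplasmic reticulum, double-stranded RNA or haem shortage phosphorylate the translation factor eIF2alpha. Protein synthesis then slows, while the mRNA of ATF4 is translated more and this transcription factor switches on genes for amino acid supply, further transcription factors and feedback inhibitors. Because ATF4 is set largely at translation, its mRNA level does not measure its protein. The mTOR complex 1 kinase promotes growth, and REDD1 (the product of Ddit4) and the sestrins hold it back. Forskolin acts through protein kinase A and the factor CREB, which binds the cyclic AMP response element in promoters.

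The promoter windows of the 4 genes that rose are shown first, with that of Trib3 for comparison, because they show which members carry the letters that CREB and ATF4 are known to bind. Each window runs from 250 bases before to 50 after the gene start annotated by RefSeq (assembly GRCr8), 5′ to 3′ on the strand of the gene. Capitals mark matches, on either strand, to TGACGTCA (the cyclic AMP response element), to TGACG (the core of that element, which lies inside it) or to TGATGNAA (the core of the C/EBP-ATF composite element). The windows lie at chr1:105139547-105139846 (minus strand), chr20:28436988-28437287 (minus), chr3:126795881-126796180 (plus), chr7:113684431-113684730 (plus) and chr3:161275484-161275783 (minus).
Ppp1r15a: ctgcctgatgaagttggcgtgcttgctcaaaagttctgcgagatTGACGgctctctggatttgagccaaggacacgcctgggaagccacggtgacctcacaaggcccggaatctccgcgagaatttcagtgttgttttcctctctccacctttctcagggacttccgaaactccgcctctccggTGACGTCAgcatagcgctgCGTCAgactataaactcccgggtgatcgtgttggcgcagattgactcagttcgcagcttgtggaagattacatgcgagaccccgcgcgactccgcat
Ddit4: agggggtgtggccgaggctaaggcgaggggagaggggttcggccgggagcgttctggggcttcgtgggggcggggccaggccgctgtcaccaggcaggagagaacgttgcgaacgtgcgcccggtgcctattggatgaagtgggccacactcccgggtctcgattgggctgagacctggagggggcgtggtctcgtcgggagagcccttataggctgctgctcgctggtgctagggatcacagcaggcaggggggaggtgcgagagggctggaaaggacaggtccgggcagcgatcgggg
Chac1: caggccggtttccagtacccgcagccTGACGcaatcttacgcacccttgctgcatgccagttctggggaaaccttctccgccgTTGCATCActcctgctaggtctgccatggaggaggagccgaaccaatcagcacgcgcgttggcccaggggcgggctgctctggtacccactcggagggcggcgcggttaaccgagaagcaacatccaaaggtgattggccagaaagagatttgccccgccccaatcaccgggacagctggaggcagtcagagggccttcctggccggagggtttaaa
Atf4: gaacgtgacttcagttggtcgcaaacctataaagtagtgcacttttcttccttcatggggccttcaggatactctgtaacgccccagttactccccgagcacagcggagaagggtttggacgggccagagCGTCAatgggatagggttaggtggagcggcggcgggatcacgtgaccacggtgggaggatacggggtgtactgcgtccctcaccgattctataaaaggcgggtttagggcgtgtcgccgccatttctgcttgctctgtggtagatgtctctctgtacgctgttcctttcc
Trib3: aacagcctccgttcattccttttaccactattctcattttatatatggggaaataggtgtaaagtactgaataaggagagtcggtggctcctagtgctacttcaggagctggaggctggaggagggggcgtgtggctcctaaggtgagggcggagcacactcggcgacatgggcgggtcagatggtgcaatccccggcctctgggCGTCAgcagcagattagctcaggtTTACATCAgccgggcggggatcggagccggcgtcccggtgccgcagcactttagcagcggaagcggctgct

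Of the 9 members with a window in the RefSeq table (all but Atf3), only Ppp1r15a held the full cyclic AMP response element, 66 bases before its start, with 2 further element cores outside it. The full element was found in 1.83% of all 33469 windows. The element core was found in 4 of the 9 members (Atf4, Trib3, Chac1 and Ppp1r15a) and in 21.2% of all windows. The composite core was found in Trib3, 21 bases before the start, and in Chac1, 167 bases before it, against 3.98% of all windows. The window of Ddit4, the member with the largest rise, held none of the 3 motifs, nor did those of Ddit3, Asns, Sesn2 and Psat1. A match is a description of the letters and does not show binding. Bases outside these windows, and any other annotated start of a member, were not searched, so a missing match covers the window only.

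**Figure D1:**
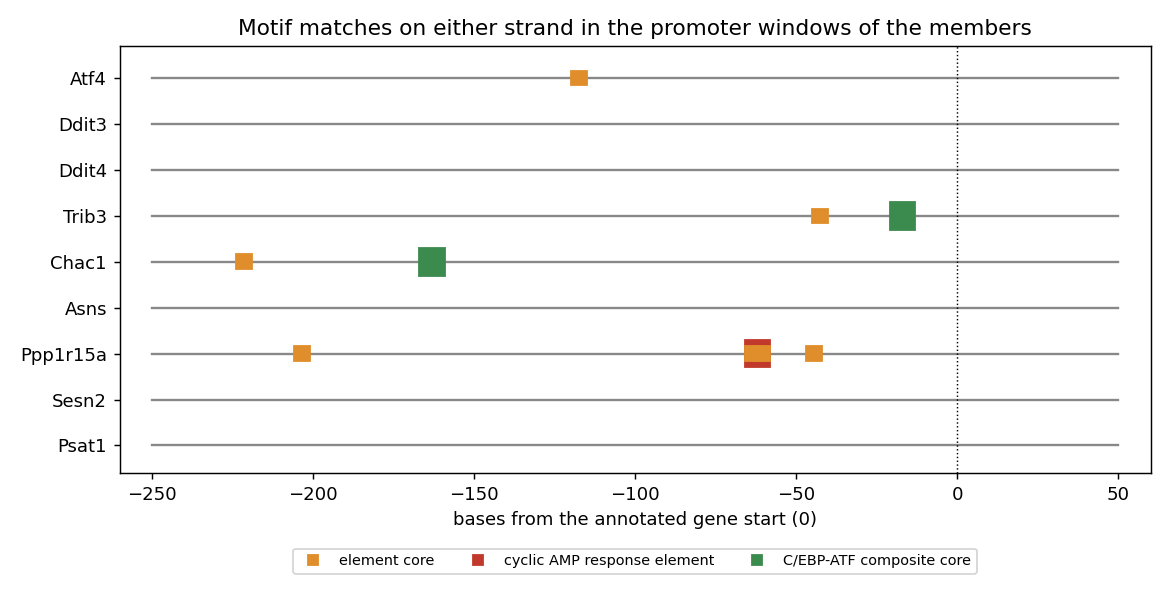
Motif matches in the promoter windows of 9 members, by distance in bases from the annotated gene start. Orange blocks are element cores, the red block the full cyclic AMP response element of Ppp1r15a, with the cores inside it drawn on top, and green blocks the composite cores of Trib3 and Chac1; Ddit3, Ddit4, Asns, Sesn2 and Psat1 have no match.

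The values are the authors' expression values, taken as log2, a base inferred from their range. Differences are forskolin minus no forskolin on that scale, tested with limma. A call needs a Benjamini-Hochberg adjusted p under 0.05, taken over the whole chip's tested probe sets. Array medians were 8.15 to 8.17 on chip A and 6.77 to 6.79 on chip B. Each of 12 genes of a panel known to respond to cyclic AMP, chosen with earlier results of these data known, was called higher on chip A. Without forskolin, Fos, Nr4a3, Nr4a2 and Rgs2 lay under the mean level that the brightness filter required (7.02) and passed it through their forskolin arrays; the other 8 had differences of 0.71 to 3.24. Of the 13 chromaffin markers on chip A, 10 passed the brightness filter, among them Th, Chga, Chgb and Phox2a, while Dbh, Slc18a1 and Slc18a2 lay under it. Their summed linear level was 25633 to 25734 on the forskolin arrays and 22043 to 22564 on those without, and 2 of them, Gata2 and Phox2a, rose. The sum of the 3 on chip B ran the other way, 505 to 559 with forskolin and 582 to 596 without. Of these, Gata3 and Slc18a2 passed the filter of chip B, and neither was called. On chip A the summed level of 8 fibroblast markers, of which 5 passed the filter, was 7820 to 8015 with forskolin and 7698 to 7828 without. It was 705 to 713 and 667 to 700.4 for 5 glial markers, 640.1 to 669.6 and 616 to 644 for 6 adrenal cortex markers, and 727 to 733 and 715 to 725 for 7 blood and endothelial markers, with 2 of each list passing the filter and none called by limma on chip A. The part of these levels in the results below was not tested. Fewer cells of a type and less RNA per cell cannot be told apart in such bulk samples.

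Of the 10 tested member probe sets on chip A, 4 rose, those of Ddit4, Ppp1r15a, Chac1 and Atf4, and none fell; 7 were higher and 0 lower by unadjusted p under 0.05. Of the 11106 probe sets tested there, 2.03% were called higher and 1.26% lower, and by unadjusted p 7.10% were higher and 10.3% lower. Without forskolin replicate 2, only Ddit4 and Ppp1r15a, 2 of the 4, were called. Both forskolin arrays lay above both arrays without forskolin for 8 of the 10, where 20.4% of all tested probe sets did so. The difference was above 0 for 9 of the 10, with a median of 0.17, against -0.01 over every probe set tested. Of these 10 probe sets 3 belong to Trib3, so they stand for 8 genes. The members, and the lists of genes below, were chosen with earlier results of these data known. Their counts beside the shares of the chip are therefore no test of a set. On chip B the 1 tested member probe set was not called, where 0.150% of 10693 tested probe sets were called higher; by unadjusted p, 1.64% were higher and 3.33% lower on that chip.

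**Figure D2:**
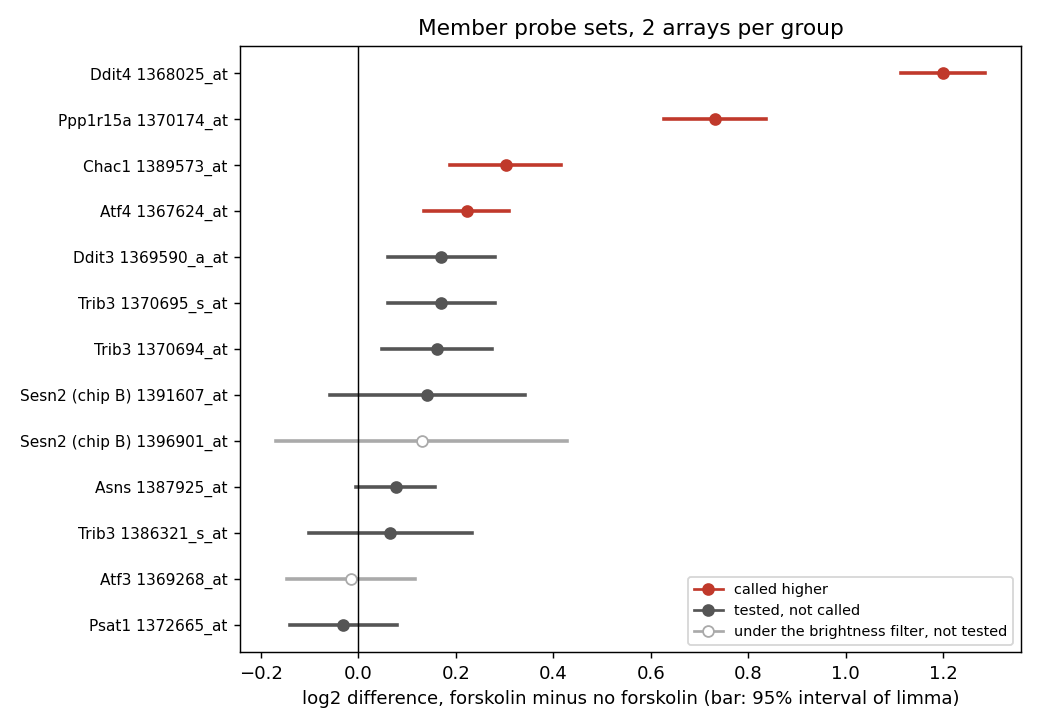
Log2 difference (forskolin minus no forskolin, x axis) of each of the 13 member probe sets with limma's 95% interval, from 2 arrays per group. Ddit4 (1.20) and Ppp1r15a (0.73) stand to the right of all others, Chac1 (0.30) and Atf4 (0.22) are also called, and open points lay under the brightness filter and were not tested.

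Ddit4 encodes REDD1, which acts through the tuberous sclerosis complex to switch mTOR complex 1 off, and had the largest rise of the members. Its probe set measured 10.83 and 10.78 on the forskolin arrays, against 9.59 and 9.62 on the arrays without forskolin. The gap between the groups, 1.16, was far wider than the largest gap within a group, 0.05. The difference was 1.20 ± 0.04 (log2, SE, n = 2 per group), with a 95% interval of 1.11 to 1.29 and a limma adjusted p of 3.77e-07. Among the 11106 tested probe sets it ranked 18 by p and 25 by the size of the rise.

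Sesn2, the other mTOR brake among the members, encodes a leucine-sensing sestrin and was measured on chip B only. Its brighter probe set (1391607_at) measured 8.60 and 8.73 on the forskolin arrays, against 8.51 and 8.53 on the arrays without forskolin. The forskolin arrays were both above, as in 10.4% of all tested probe sets of that chip, but they lay 0.14 apart and the gap between the groups was 0.06. The difference of 0.14 ± 0.08 (SE, n = 2 per group) was not called (limma adjusted p = 0.977). Its 95% interval of -0.06 to 0.34 leaves out a rise of the size seen in Ddit4, but holds those of Chac1 (0.30) and Atf4 (0.22). The other Sesn2 probe set (1396901_at) lay under the filter with 4.93 and 5.31 on the forskolin arrays, against 5.03 and 4.96 without forskolin, and its groups overlapped.

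Ppp1r15a encodes GADD34, the subunit that directs protein phosphatase 1 to eIF2alpha and so ends the stress response. It measured 9.64 and 9.55 on the forskolin arrays, against 8.84 and 8.89 on the arrays without forskolin. The gap between the groups was 0.66 and the largest gap within one 0.09. The difference was 0.73 ± 0.05 (log2, SE, n = 2 per group) with a 95% interval of 0.63 to 0.84, a change of 66.1% on the linear scale (limma adjusted p = 3.13e-05). This is the member whose promoter window holds the full cyclic AMP response element. Whether that element has a part in the rise was not tested.

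Atf4, the central transcription factor of the response, rose far less than Ddit4 and Ppp1r15a. Its values were 10.99 and 11.06 with forskolin, against 10.78 and 10.82 without. The groups were 0.17 apart and the arrays of a group at most 0.07. The difference of 0.22 ± 0.04 (SE, n = 2 per group), or 16.7% on the linear scale, passed the threshold (limma adjusted p = 0.0164). It rests in part on forskolin replicate 2, without which the adjusted p was 0.0688 and the difference 0.19.

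**Figure D3:**
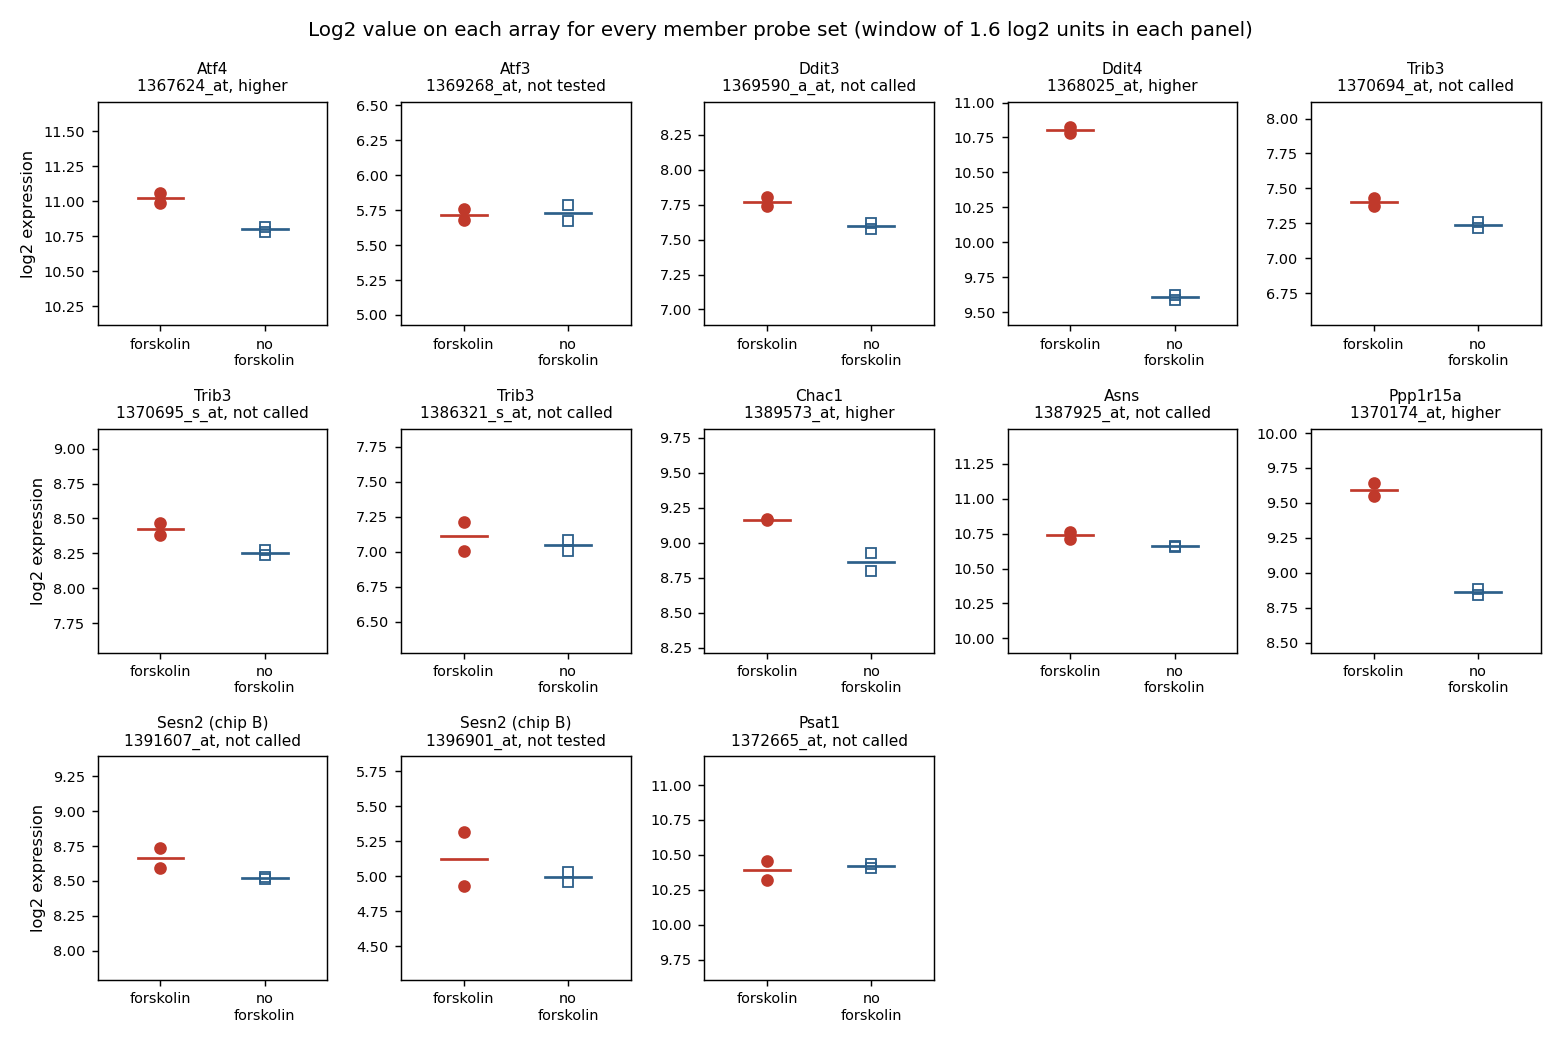
Log2 value on each array (y axis) for the 13 member probe sets, with forskolin arrays as filled circles left of the open squares of arrays without forskolin and a line at each group mean. Every panel spans 1.6 log2 units, so the gap of Ddit4 (10.83 and 10.78 against 9.59 and 9.62) can be compared by eye with the overlapping groups of Psat1, Atf3, 1 Trib3 and 1 Sesn2 probe set.

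Ddit3, which encodes CHOP, a transcription factor that acts below ATF4, was not called. It measured 7.74 and 7.80 on the forskolin arrays, against 7.58 and 7.62 on the arrays without forskolin. The groups did not overlap, but the difference of 0.17 ± 0.05 (SE, n = 2 per group) missed the threshold (limma adjusted p = 0.120, unadjusted 0.00706). Its 95% interval was 0.06 to 0.28. Atf3, a factor that in many cells is induced early by stress, lay too low to pass the brightness filter and has no test. It measured 5.68 and 5.76 with forskolin and 5.79 and 5.67 without, with overlapping groups and a difference of -0.01. No detection calls were used here, so the distance of such levels from background is unknown.

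Trib3, a pseudokinase that restrains both AKT and ATF4, was measured by 3 probe sets, and none was called. The brightest (1370695_s_at) measured 8.47 and 8.38 on the forskolin arrays, against 8.24 and 8.27 without forskolin, a difference of 0.17 ± 0.05 (SE, n = 2 per group; limma adjusted p = 0.120). A second (1370694_at) measured 7.37 and 7.43 with forskolin, against 7.26 and 7.22 without, a difference of 0.16 (limma adjusted p = 0.144). In both, the forskolin arrays lay above the others. The remaining one (1386321_s_at) measured 7.22 and 7.01 with forskolin, against 7.00 and 7.09 without, so its groups overlapped (difference 0.07, limma adjusted p = 0.691). These probe sets read 1 gene and are not independent of each other.

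The effector enzymes split. Chac1, which breaks down glutathione, rose: it measured 9.17 and 9.16 on the forskolin arrays, against 8.92 and 8.80 on the arrays without forskolin. Here the spread came from the arrays without forskolin, which lay 0.12 apart, while the gap between the groups was 0.24. The difference was 0.30 ± 0.05 (SE, n = 2 per group), or 23.3% on the linear scale (limma adjusted p = 0.0130). The call was lost by a small margin without forskolin replicate 1 (0.0547) or forskolin replicate 2 (0.0503).

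Asns, which makes asparagine and is a classical ATF4 target, measured 10.71 and 10.76 with forskolin, against 10.66 and 10.66 without. Its groups were 0.05 apart, about as far as the forskolin arrays from each other. The difference of 0.08 ± 0.04 (SE, n = 2 per group) was not called (limma adjusted p = 0.307), with a 95% interval of -0.004 to 0.16. Psat1, the aminotransferase of serine synthesis, measured 10.32 and 10.46 with forskolin and 10.44 and 10.41 without. The groups overlapped, and the difference of -0.03 had a 95% interval of -0.14 to 0.08 (limma adjusted p = 0.801), which leaves out a rise of the size seen in Chac1.

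Genes whose values across the 4 arrays of chip A were nearest to those of a member that rose were found by the root mean square distance of log2 values, each centred on the mean of the arrays without forskolin. Nearest to Ddit4 were Mat2a (distance 0.02), Egr1 (0.06) and Bhlhe41 (0.06). Ppp1r15a lay nearest to Lpin1, Zfand2a and Zrsr2-ps1, each at 0.04. For Chac1 they were Nab2, LOC100911534 and Mef2d (0.01 to 0.03), and for Atf4 Csgalnact2, Ndel1 and Isl1, all at about 0.01. With 4 arrays in 2 groups, this likeness reflects mostly the size of the difference.

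Among other targets of ATF4 and the amino acid response, 4 of 27 tested genes rose and none fell, with a median difference of 0.02. On chip A, where 23 of the 27 were measured, 2.03% of all tested probe sets were called higher and 1.26% lower. By unadjusted p under 0.05, 8 of the 27 were higher and 0 lower, beside 7.10% and 10.3% of all probe sets tested on chip A. Cebpb, a transcription factor that pairs with ATF4, measured 11.37 and 11.28 on the forskolin arrays, against 10.39 and 10.44 without forskolin, a 1.88-fold rise (limma adjusted p = 3.53e-06). Gdf15, a secreted stress hormone, rose 1.56-fold, with 7.51 and 7.64 with forskolin, against 6.90 and 6.96 without. Both arrays without forskolin lay under the mean level the filter required (7.02), so it passed through its forskolin arrays, as did Fgf21 (0.14, not called), 1 of those 8. Vegfa, the angiogenic growth factor, rose 1.35-fold. Nupr1, a small stress-induced chromatin protein, rose 1.16-fold (limma adjusted p = 0.0379). That call did not hold without forskolin replicate 1 (0.0619), forskolin replicate 2 (0.157) or no forskolin replicate 1 (0.101), with no filter (0.0562) or by eBayes without a trend (0.0573).

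Of 19 tested eIF2alpha kinases, phosphatase subunits and eIF2 factors, 1 fell and none rose, with a median of -0.01. Of all probe sets tested on chip A, 1.26% were called lower and 2.03% higher. By unadjusted p under 0.05, 5 of the 19 were lower and 1 higher, where the chip had 10.3% lower and 7.10% higher. The one that fell was Eif2ak2, which encodes PKR, the kinase that senses double-stranded RNA. It measured 7.68 and 7.60 on the forskolin arrays, against 7.90 and 7.99 on the arrays without forskolin, a difference of -0.30 ± 0.05 (SE, n = 2 per group; limma adjusted p = 0.0182). Without forskolin replicate 2 the adjusted p was 0.0900. Eif2b5, a subunit of the exchange factor of eIF2, measured -0.19 (limma adjusted p = 0.0609). Its adjusted p was 0.0288 with median centring of the arrays and 0.0477 with a 50th percentile filter. With no filter it was 0.0895, and by eBayes without a trend 0.0687. The phosphatase catalytic subunit gene Ppp1cc measured -0.13 (0.0720). Its adjusted p was 0.0314 with median centring, but 0.0962 with no filter and 0.140 by eBayes without a trend. Eif2ak1, the haem-regulated kinase, measured -0.09 (0.262), and its other probe set 0.07 (0.411). The other Eif2b5 probe set measured -0.10 (0.306).

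Of 31 tested genes of the mTOR complexes and the machinery that senses amino acids and energy, 2 fell and none rose, with a median close to 0. Of all probe sets tested on chip A, 1.26% were called lower and 2.03% higher. By unadjusted p under 0.05, 3 of the 31 were lower and 2 higher, shares near those of chip A (10.3% and 7.10%), where 29 of the 31 were measured. The 2 that fell are themselves brakes. Sesn1, a sestrin like Sesn2, measured 8.21 and 8.33 on the forskolin arrays, against 8.69 and 8.65 without forskolin, a difference of -0.40 ± 0.05 (SE, n = 2 per group; limma adjusted p = 0.00393). Its probe set on chip B measured -0.29 and was not called (0.919). Tsc1, a subunit of the tuberous sclerosis complex, measured 8.25 and 8.20 with forskolin, against 8.46 and 8.52 without, a difference of -0.26 ± 0.04 (limma adjusted p = 0.0166). The other Tsc1 probe set measured 0.10 (limma adjusted p = 0.350), and the call was lost without forskolin replicate 2 (0.0779). Prkaa2, a catalytic subunit of AMP-activated kinase, measured 0.15 and Flcn, the folliculin gene, 0.12, without a call.

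**Figure D4:**
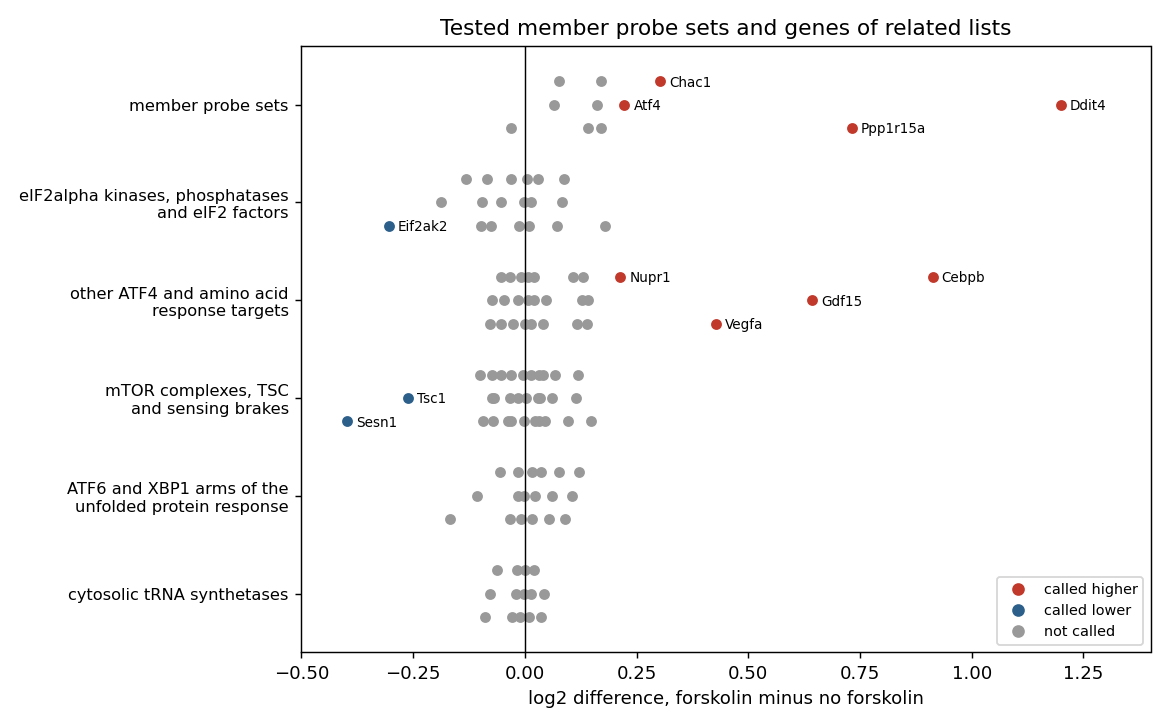
Log2 difference (forskolin minus no forskolin, x axis) of the 11 tested member probe sets and of each tested gene of 5 related lists through its brightest probe set. Red points were called higher and blue points lower; the mTOR list has 2 blue points (Sesn1, Tsc1) and the lists of the ATF6 and XBP1 arms and of tRNA synthetases have no coloured point.

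None of 18 genes of the ATF6 and XBP1 arms of the unfolded protein response was called by limma. At an unadjusted p under 0.05, 1 was higher and 2 lower, shares near those of chip A (7.10% and 10.3%), where 16 of the 18 were measured. Herpud1, which helps degrade misfolded proteins of the endoplasmic reticulum, measured -0.17 (limma adjusted p = 0.0667). Its adjusted p was 0.0216 with median centring and 0.0341 with quantile normalization, but 0.0907 with no filter and 0.101 by eBayes without a trend. Edem1, which targets misfolded glycoproteins, measured 0.12, and its other probe set, on chip B, -0.02. Sdf2l1, a cochaperone of the endoplasmic reticulum, measured -0.11 and Creb3, a membrane-bound transcription factor, 0.09. None of 14 cytosolic tRNA synthetase genes, several of which ATF4 is known to activate, was called by limma either, and 1 was lower at an unadjusted p under 0.05, beside 10.3% of the chip. They ranged from -0.09 for Nars1 to 0.04, with Mars1 at -0.06, Tars1 at -0.08 and Aars1 at 0.04. The other Mars1 probe set, on chip B, measured 0.02.

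**Figure D5:**
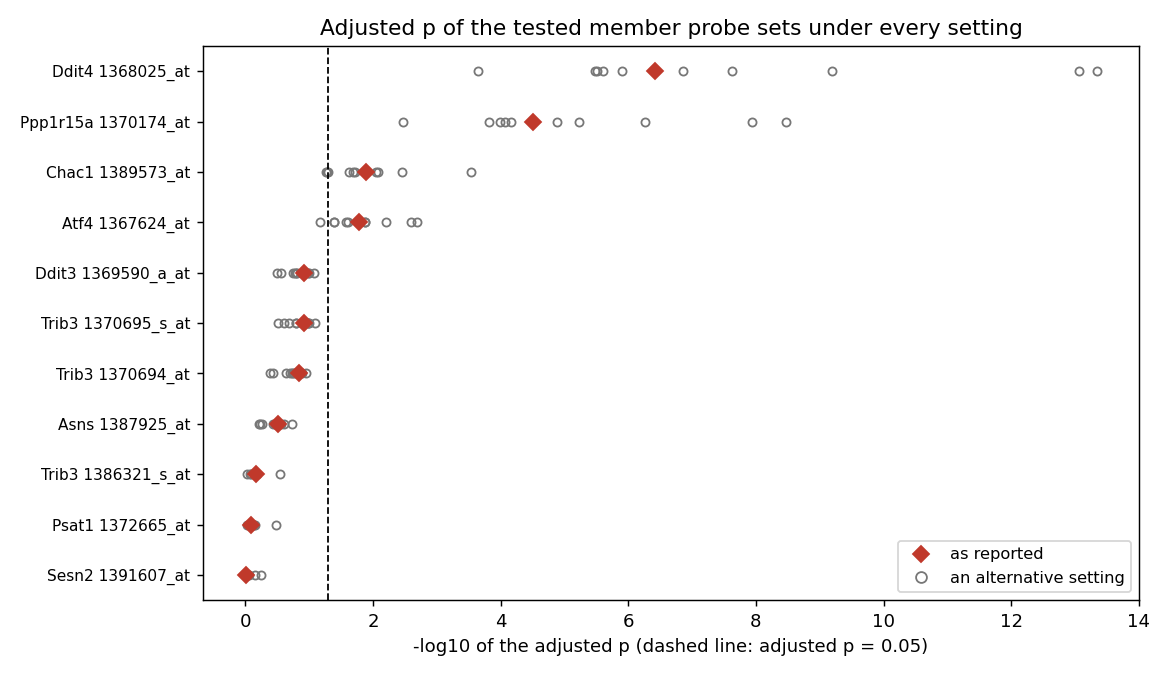
Adjusted p of the 11 tested member probe sets, as -log10 on the x axis, as reported (red diamonds) and under each alternative setting (open circles), with a dashed line at 0.05. All circles of Ddit4 and Ppp1r15a lie right of the line, Chac1 and Atf4 have circles on both sides, and the other 7 probe sets have all circles left of it.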

How the data were processed

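RNA of PC12 cells with and without forskolin was measured on 2 microarrays per group on each of 2 chips. Per the deposited tables, each array has 1 processed value for every probe set, taken here as log2. The log base was inferred: the highest value raised to base 2 is 13521, within a 16-bit scanner's range, whereas 3063 values on chip A would exceed it as natural logarithms. For the authors' background correction, probe summary and scaling, the method was not given in the sources used here. Each chip was analysed alone. Array medians differed by at most 0.025, so no further scaling was applied. Probe sets under the 30th percentile of mean linear value were left out, leaving 11106 of 15866 (chip A) and 10693 of 15276 (chip B).

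Symbols came from GEO's annotation of the chips, updated through the Entrez number to RefSeq's rat table (GRCr8), which 12748 and 7524 probe sets matched. Probe sets with several symbols (312 and 100) or none (2771 and 7612) were tested and not named. Promoter sequences came from RefSeq. Levels of different probe sets are not compared.

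Forskolin was compared with no forskolin by limma 3.58.1 in R 4.3.3 (lmFit, eBayes with an intensity trend, two-sided), without the replicate number as a block, with Benjamini-Hochberg adjustment over all tested probe sets of a chip. The median SE was 0.045 on chip A and 0.089 on chip B, and the number of arrays limits precision. The fit was also run on simulated data, and no result above rests on that run. The differences added there were larger than those of Atf4 and Chac1. A listed gene counts once, by its brightest tested probe set (chip A before chip B). All member probe sets are reported, and from each list up to 6 called genes with the smallest p, filled up to 4 genes. From the cyclic AMP panel only counts, a range and the genes that were dim without forskolin are given. The members and lists were chosen with earlier results of these data known. Alternatives were other filters, scalings and variance models, a replicate block, leaving out each array, and another probe set per gene.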

Additional observations from a re-analysis of the deposited data

How the results depend on the processing

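Across 10 alternative fits, Ddit4 and Ppp1r15a were called higher in all 10, with differences of 1.18 to 1.22 and 0.69 to 0.78. Atf4 was called in 9 of 10 and Chac1 in 7 of 10, both with a positive difference in every one. None of the other 7 tested member probe sets was called in any. The 50th percentile filter left out Ddit3 and 2 Trib3 probe sets, which therefore have 9 alternatives. The difference of Psat1 ranged from -0.10 to 0.04. The count of member probe sets called higher on chip A was 4, and 2 to 4 when leaving out 1 array in turn; the 2 were Ddit4 and Ppp1r15a, without forskolin replicate 2.

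Of all probe sets on chip A, 140 were lower, against 277 with median centring (with 300 higher, beside 226) and 83 to 192 when leaving out 1 array. On chip B 16 were higher and 1 lower, against 27 and 3 under quantile normalization and 10 to 41 and 0 to 57 when leaving out 1 array. With quantile normalization or median centring 1 gene of the ATF6 and XBP1 list was lower, Herpud1, against 0 in the reported fit. Of the eIF2 list 3 genes were lower with median centring, against 1, and 0 to 1 were lower and 0 to 1 higher when leaving out 1 array. Of the mTOR list 1 to 2 were lower when leaving out 1 array. Taking the probe set with the smallest p for each gene moved no list count by over 1.5 times. The cause of these shifts was not tested.

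The labels number the replicates 1 and 2 in each group, but same-numbered arrays are only 2 pairs and deviated together at r = 0.003 on chip A and 0.20 on chip B, so the numbers were not taken to pair them. With the replicate block, 46 probe sets were lower on chip A and 2 on chip B, 0 genes of the eIF2 list and 1 of the mTOR list, and the adjusted p was 0.0532 for Chac1, 0.0593 for Nupr1, 0.108 for Eif2ak2 and 0.0834 for Tsc1; the share of higher among the calls on chip A was 77.6%, against 61.7%.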

Other observations

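Within the list of other ATF4 targets, the amino acid transporters and the biosynthetic enzymes had different ranges, a grouping made after the values were seen and therefore given without a test. Through their brightest probe sets, all 8 tested transporter genes had differences at or above 0, with a median of 0.11. They ran from 0.00 for Slc6a9 to 0.14 for Slc7a5, a subunit of the large neutral amino acid transporter, and none was called by limma. Other Slc6a9 probe sets measured 0.03 and -0.02, and another of Slc7a1 0.04. Over all probe sets tested on chip A, where 6 of the 8 were measured, the median difference was -0.01. Slc3a2, the partner of Slc7a5 and Slc7a11, measured 0.13 (limma adjusted p = 0.0833), the smallest p of the group. Slc7a11, the cystine transporter subunit, measured 0.12 on chip B.

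The 9 tested enzymes of amino acid and one-carbon metabolism ranged from -0.08 for Got1 to 0.01 for Shmt2, with a median of -0.03. None was called by limma. Phgdh, the first enzyme of the serine pathway to which Psat1 belongs, measured -0.03 and Psph, the last, 0.01.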
